A study of Homo sapiens with 4 samples.

Results

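The Wnt pathway was described here through 38 named genes, of 60658 gene identifiers in the expression tables, in the established human colorectal cancer lines HT29 and LIM1215, with and without knockdown of TMEM161A, a gene for a transmembrane protein. The 38 genes are a fixed list of pathway components and transcriptional targets, chosen by name and not by a threshold, but with earlier results of these data known. Their counts beside those of all genes are therefore a description and not a test. They comprise 4 receptor genes, 2 genes for ligand release, 3 of the β-catenin destruction complex, 8 of the nuclear output, 8 feedback inhibitors, 9 targets linked to intestinal stem cells and 4 further targets. The list was read in 2 directions, between the lines and between knockdown and control within a line.

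The study asked how TMEM161A bears on colorectal cancer growth. Each was given either a negative control small interfering RNA (siRNA) or an siRNA against TMEM161A, and poly(A) RNA was sequenced once per group, which gave the groups HT29 control, HT29 knockdown, LIM1215 control and LIM1215 knockdown. With 1 library per group there was no error between replicates, and the dose and duration of the siRNA were not given in the sources used here. Levels are FPKM, fragments corrected for gene length and library size, as deposited by the authors. From the steps of low values, 1 FPKM was worth about 18.12 to 21.56 fragments for each kilobase, depending on the library.

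In canonical Wnt signalling a secreted Wnt ligand binds a Frizzled receptor and the co-receptors LRP5 or LRP6, which inactivates the complex of APC, AXIN1 and GSK3B that otherwise marks β-catenin, the product of CTNNB1, for destruction. β-catenin then enters the nucleus, binds TCF/LEF factors with BCL9 and PYGO proteins, and activates targets, among them inhibitors that dampen the pathway. In the colon this pathway maintains the crypt stem cells, and most colorectal cancers carry a mutation that keeps it active. HT29 is known for truncated APC and LIM1215 for an activating CTNNB1 mutation. No sequence variant was read here.

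The targeted gene was checked first. TMEM161A (chromosome 19, 19119169 to 19138513, minus strand, GRCh38) had FPKM values of 42.6 (control) and 4.64 (knockdown) in HT29, and of 39.1 and 7.61 in LIM1215. The knockdown libraries thus held 10.9% and 19.4% of the control level, with 95% counting intervals of 9.39% to 12.6% and 17.2% to 22.0%.

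The labelled lines were checked against 11 markers of colon epithelium. All 11 had an FPKM of at least 1 in both LIM1215 libraries, and 6 did in both HT29 libraries, among them EPCAM, CDH1 and the keratins KRT8, KRT18 and KRT19. The other 5, KRT20, VIL1, CDX1, LGALS4 and CDH17, were at 0.815 or less in the HT29 libraries and between 67.8 and 398 in LIM1215. HT29 is generally known to make villin, the product of VIL1, and cadherin-17, the product of CDH17, so the libraries labelled HT29 stand apart from what that label is known for. "HT29" is used below as the label of these libraries, and their identity was not tested. The summed FPKM of 11 markers was 3140 and 3588 in HT29 against 8333 and 10244 in LIM1215, and the part of this difference in the comparisons between lines was not tested. Markers of endothelial cells summed to 0.601 or less in every library, and fibroblast markers to between 6.03 and 18.2, most of it COL1A1. Immune markers summed to 6.76 and 10.7 in HT29 and to 59.4 and 74.4 in LIM1215, most of it CD68. In bulk RNA, fewer cells of a type and less RNA per cell cannot be told apart.

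A difference is given as the log2 ratio of FPKM + 1, which understates the change of low genes. It was counted past 2-fold where its size reached 1, with no p-value. Of the 38 genes, 36 passed a mean FPKM of 1 over the 4 libraries, as did 14803 genes in all, and DKK4 and TNFRSF19 did not. Ratios of FPKM are given with 95% counting intervals from the estimated fragments, which cover counting error only.

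Between the control libraries, AXIN2, EPHB2 and other targets of the pathway were higher in LIM1215 than in HT29, while DKK1 and TCF7L2 were lower. Of the genes with a mean FPKM of at least 1 in each line, 3 of 6 feedback inhibitors (AXIN2, NKD1 and ZNRF3) and 1 of 4 stem cell targets (EPHB2) were past 2-fold higher in LIM1215. Of all genes under that filter, 8.14% were. Of the 36 genes, 14 were past 2-fold higher in LIM1215, against 12.0% of all genes, and 4 past 2-fold lower, against 7.42%. The 14 were FZD5, AXIN1, TCF7, LEF1, AXIN2, NKD1, ZNRF3, APCDD1, LGR5, ASCL2, EPHB2, PROX1, TDGF1 and KIAA1549, and the 4 were TCF7L1, TCF7L2, DKK1 and TSPAN5. Among the 14, 6 had a mean FPKM under 1 in HT29, so they passed the filter only through LIM1215 and had to differ. With the libraries rescaled to a common sum (TPM), which moved the median of all genes by -0.16, 1527 of all genes were higher and 1516 lower in place of 1773 and 1099. Scaling to a common upper quartile gave 1492 and 1447, a shift of -0.16, and the Wnt genes stayed at 14 and 4 under both.

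Between the knockdown libraries, which share no library with the controls, 15 genes were past 2-fold higher in LIM1215, against 12.7% of all genes, and 3 lower, against 8.53%. All 14 of the higher genes recurred and SP5 joined them, while TSPAN5, at -0.98, was just short of the threshold. Of the 14, LEF1, APCDD1, LGR5, ASCL2, PROX1 and TDGF1 passed the filter only through LIM1215 and so had to differ. With a mean FPKM of at least 1 required in each line, 30 genes stood in the comparison of controls, of which 8 were higher and 4 lower, against 8.14% and 6.08% of all genes.

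**Figure D1:**
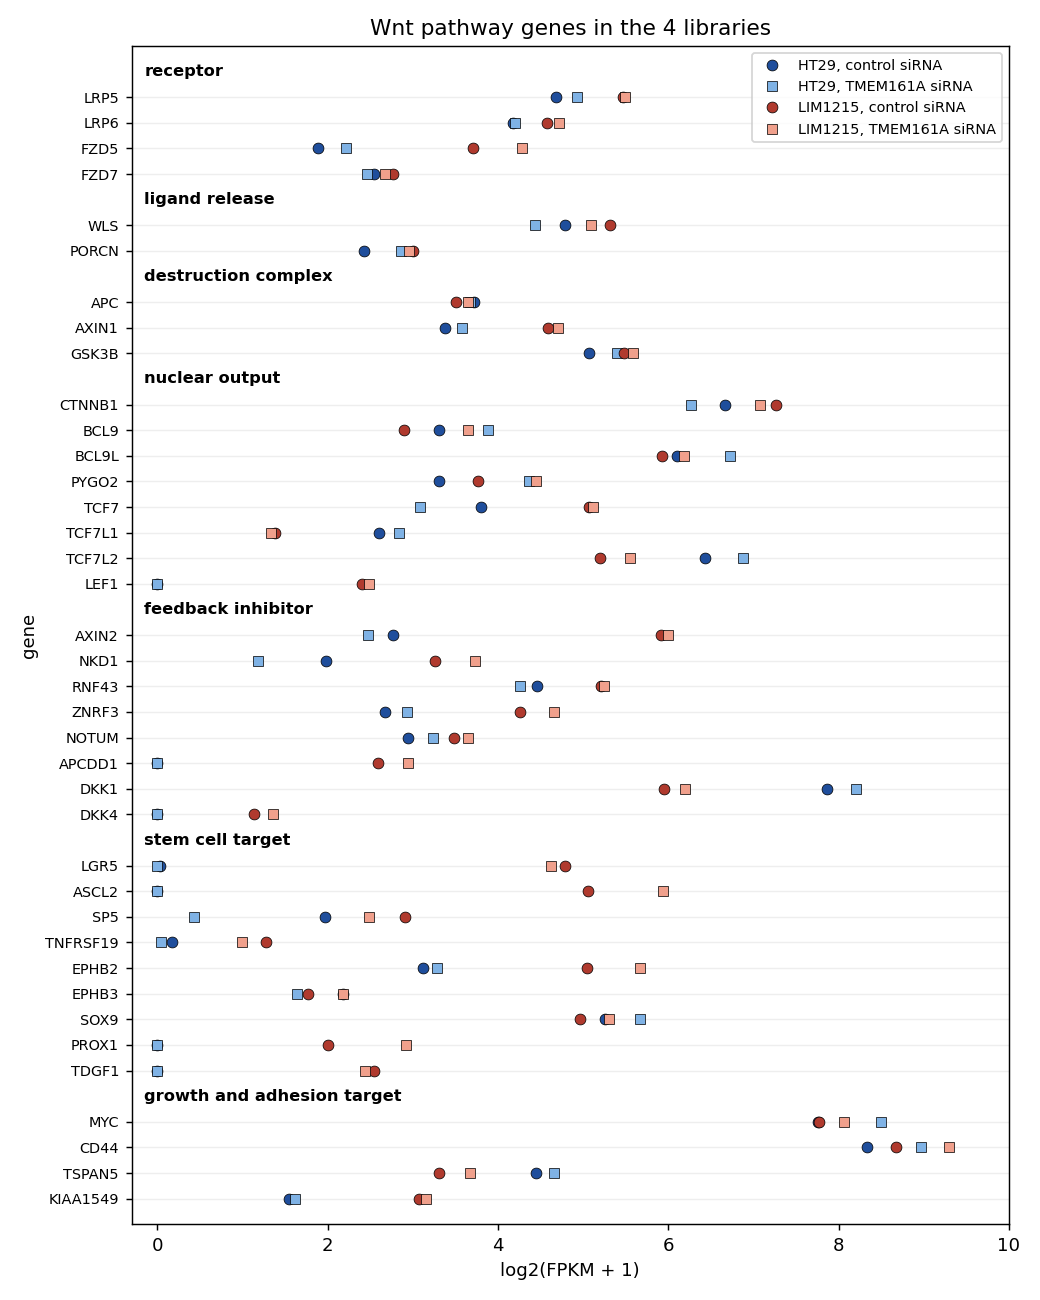
Levels of the 38 Wnt pathway genes by role; the x axis is log2(FPKM + 1) and each point is 1 library, circles for the control siRNA and squares for the TMEM161A siRNA, blue for HT29 and red for LIM1215. Genes listed at 0 in both HT29 libraries, such as ASCL2 and APCDD1, sit at the left edge while their LIM1215 points do not, and DKK1 has its HT29 points to the right of its LIM1215 points.

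**Figure D2:**
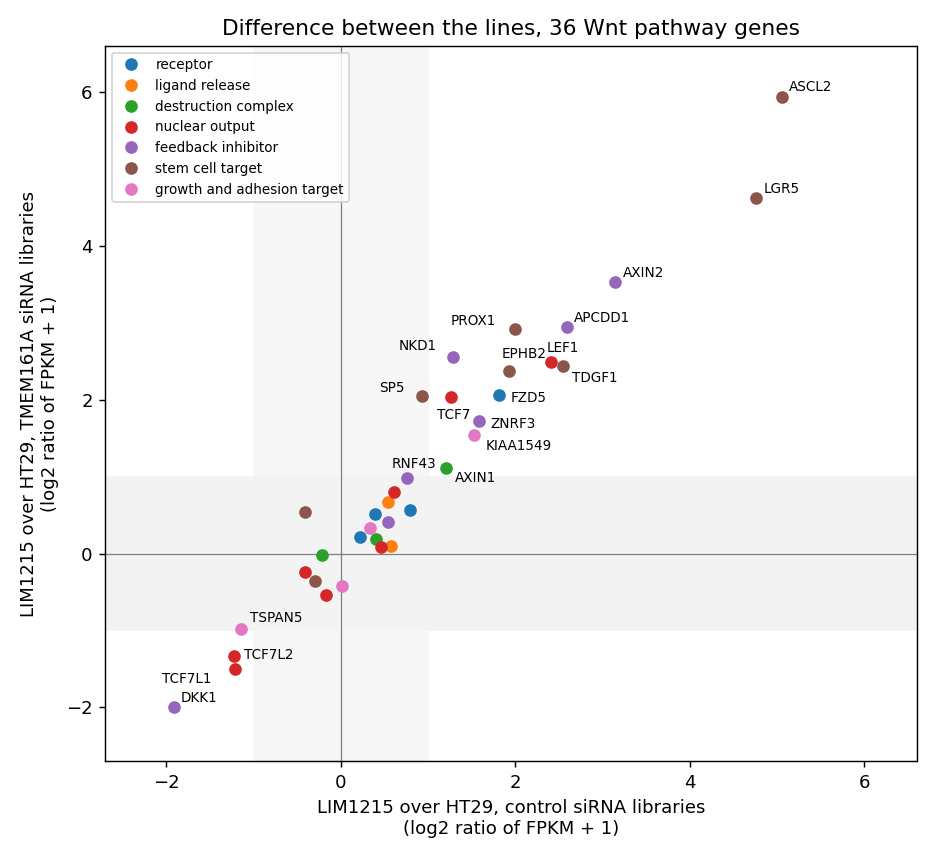
LIM1215 over HT29 for the 36 genes that passed the filter, as log2 ratios of FPKM + 1, in the control libraries (x axis) and the knockdown libraries (y axis), coloured by role; the grey bands mark ratios under 2-fold. ASCL2 (5.06 and 5.94) and LGR5 (4.76 and 4.62) lie farthest up and DKK1 (-1.91 and -2.001) farthest down.

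Of the receptors, the co-receptors LRP5 and LRP6 differed by less than 2-fold between lines. LRP5 had an FPKM of 24.6 and 29.5 in the HT29 control and knockdown and 43.4 and 44.2 in LIM1215, and LRP6 had 17.1, 17.5, 22.8 and 25.3 in that order. Both LIM1215 libraries were above both HT29 libraries for each gene. Here and below, overlap of lines compares the control and knockdown libraries of each line, which are not replicates. The shares of all genes without overlap between lines, or between knockdowns and controls, were not counted. FZD5, a Frizzled receptor of the intestinal epithelium, had 2.70 and 3.66 in HT29 and 12.0 and 18.5 in LIM1215, a ratio of 4.46 between the controls (3.99 to 4.995). The lines did not overlap. FZD7 had 4.83 and 4.51 in HT29 and 5.81 and 5.40 in LIM1215, closer together but without overlap. Among the 10 Frizzled genes, FZD6 held the largest share of the summed FPKM in all 4 libraries, from 34.4% to 55.6%, and the share of FZD5 was higher in LIM1215, from 4.32% to 20.5% between the controls. Both genes for ligand release were at moderate levels. WLS, which carries Wnt proteins to the cell surface, had 26.5 and 20.6 in HT29 and 39.0 and 33.2 in LIM1215, and PORCN, which attaches a lipid to them, had 4.39 to 7.05.

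The destruction complex was similar in the lines apart from its AXIN genes. APC had an FPKM of 12.2 and 11.7 in HT29 and 10.3 and 11.6 in LIM1215, and GSK3B, the kinase that marks β-catenin, 32.7 and 41.3 against 43.6 and 47.2. AXIN1, the scaffold of the complex, had 9.44 and 11.0 in HT29 and 23.0 and 25.003 in LIM1215. That is a ratio of 2.44 between controls (2.23 to 2.67), with no overlap of the lines.

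The TCF/LEF factors, which carry β-catenin to DNA, differed in makeup between the lines. TCF7L2 had an FPKM of 85.3 and 117 in HT29 and 35.8 and 45.9 in LIM1215, and TCF7 had 13.0 and 7.47 against 32.6 and 33.7. The 2 genes went opposite ways and neither overlapped between lines. LEF1 was listed at 0 in both HT29 libraries, where 3 fragments would be an FPKM of 0.0418 and 0.0413, and had 4.29 and 4.60 in LIM1215. TCF7L1, generally a repressor among them, had 5.08 and 6.15 in HT29 and 1.61 and 1.53 in LIM1215. TCF7L2 thus held 82.5% and 89.6% of the summed FPKM of 4 TCF/LEF genes in HT29 and 48.2% and 53.5% in LIM1215, and TCF7 12.6% and 5.73% against 43.9% and 39.3%. Exons of TCF7 share 210 bases with SKP1 on the opposite strand, whose FPKM was 269 to 313, and the strand setting of the counting was not given in the sources used here.

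**Figure D3:**
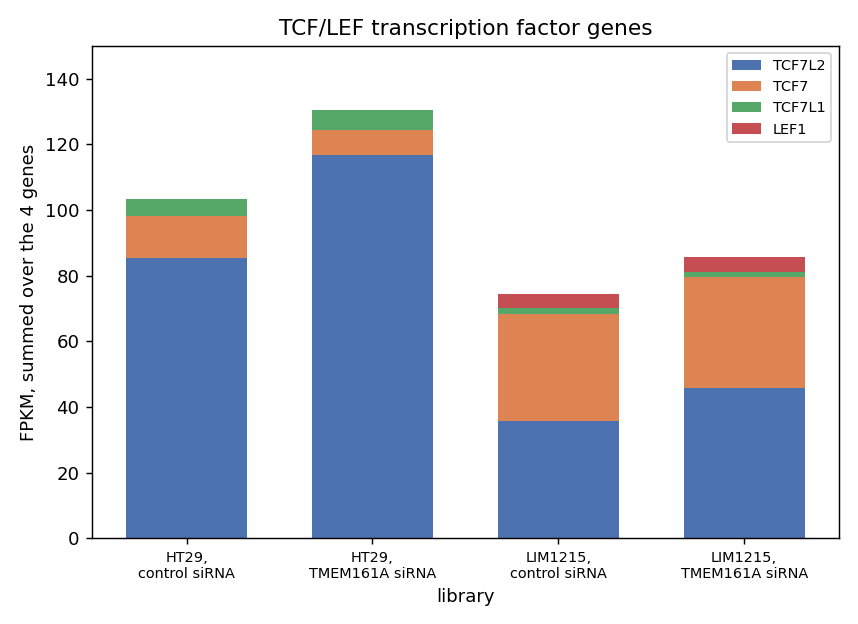
Summed FPKM of the 4 TCF/LEF genes in each library (y axis, starting at 0), each bar divided by gene. TCF7L2 makes up 82.5% and 89.6% of the HT29 bars and 48.2% and 53.5% of the LIM1215 bars, and LEF1 is absent from the HT29 bars because it is listed at 0 there.

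CTNNB1, the gene for β-catenin, had an FPKM of 100.2 and 76.3 in HT29 and 153 and 134 in LIM1215, with no overlap and a log2 ratio of 0.61 between controls. The β-catenin co-activators differed by less than 2-fold between controls. BCL9 had 8.87 in the control of HT29 and 6.45 in that of LIM1215, its relative BCL9L 67.5 and 59.7, and PYGO2, which reads histone methylation beside BCL9, 8.91 and 12.6.

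Among the feedback inhibitors, AXIN2, a widely used readout of the pathway (chromosome 17, 65528563 to 65561648, minus strand), had an FPKM of 5.82 and 4.55 in HT29 and 59.5 and 62.9 in LIM1215. Its lines were far from overlapping, with ratios of 10.2 between controls (9.31 to 11.2) and 13.8 between knockdowns (12.5 to 15.3). AXIN2 made up 38.1% and 29.3% of the summed AXIN1 and AXIN2 FPKM in HT29 and 72.1% and 71.5% in LIM1215. The ubiquitin ligases RNF43 and ZNRF3 remove Frizzled receptors from the surface. ZNRF3 had 5.38 and 6.61 in HT29 against 18.2 and 24.2, and RNF43 had 21.0 and 18.2 against 36.05 and 36.8, under the 2-fold threshold. NKD1, which acts on Dishevelled, had 2.94 and 1.27 in HT29 and 8.58 and 12.3 in LIM1215.

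The secreted inhibitors did not all go one way. NOTUM, which removes the lipid from Wnt proteins, differed little, with an FPKM of 6.68 and 8.47 in HT29 and 10.2 and 11.5 in LIM1215. DKK1, which binds LRP co-receptors, went opposite to AXIN2, with 231 and 293 in HT29 and 60.7 and 72.4 in LIM1215. The LIM1215 control held 26.2% of the HT29 control level (24.9% to 27.6%), and the lines did not overlap. APCDD1, a membrane inhibitor, and DKK4, a relative of DKK1, were both listed at 0 in HT29. APCDD1 had 5.03 and 6.70 in LIM1215 and DKK4 1.19 and 1.57.

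Of the 38 genes, 7 were silent in HT29, taken as an FPKM under 0.1 in both libraries, and none was silent in LIM1215. The share of all genes silent by this limit was not counted. Of 60658 genes, 23750 and 23397 were above 0 in the HT29 control and knockdown, and 23521 and 23935 in LIM1215. The 7 were LEF1, APCDD1, DKK4, LGR5, ASCL2, PROX1 and TDGF1. All but LGR5 were listed at exactly 0 in both libraries. With a limit of 1, TNFRSF19, a receptor of the TNF family found in crypt stem cells, was the eighth, at 0.132 and 0.0301 in HT29 and 1.42 and 0.998 in LIM1215. ASCL2, a master regulator of crypt stem cells (chromosome 11, 2268498 to 2270588, minus strand), had 32.3 and 60.4 in LIM1215, and 3 fragments in HT29 would be an FPKM of 0.110 and 0.108. LGR5, the receptor that marks these cells and binds R-spondins (chromosome 12, 71439798 to 71586310, plus strand), had 0.0191 and 0 in HT29 and 26.7 and 23.6 in LIM1215. The HT29 control value corresponds to an estimated 1.78 fragments, so the ratio of 1399 between controls carries a counting interval of 344 to 10271. PROX1, a transcription factor of colon tumour progression, had 3.01 and 6.57 in LIM1215 and TDGF1, a Nodal co-receptor, 4.86 and 4.41. A value of 0 limits the level only to about 3 fragments, an FPKM between 0.0168 for PROX1 and 0.203 for DKK4 in HT29.

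Silence in HT29 did not extend to all stem cell targets. SOX9, a factor of crypt progenitors, had an FPKM of 37.1 and 49.7 in HT29 and 30.1 and 38.6 in LIM1215, so the lines overlapped. EPHB2, an ephrin receptor that positions crypt cells, had 7.71 and 8.78 against 32.1 and 49.7, a ratio of 4.16 between controls (3.95 to 4.39). Its relative EPHB3 had 3.53 and 2.11 against 2.42 and 3.52, and its lines overlapped. LGR4, another R-spondin receptor outside the list, was present in HT29 at 2.93 and 2.61 and higher in LIM1215 at 16.2 and 15.2. LGR4, LGR5 and LGR6 together summed to 3.07 and 2.92 in HT29 and 46.1 and 41.1 in LIM1215.

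The 4 further targets also went several ways. MYC, the growth regulator, had an FPKM of 215 and 359 in HT29 and 217 and 267 in LIM1215, nearly the same in the controls. Its log2 ratio between controls was 0.01 and turned to -0.17 as TPM or with upper quartile scaling and to -0.04 after centring. CD44, a hyaluronan receptor, had 322 and 499.5 against 406 and 627, so that the control of LIM1215 lay below the knockdown of HT29. TSPAN5, a tetraspanin, was lower in LIM1215 with 8.90 and 11.8 against 20.8 and 24.2, and KIAA1549 was higher with 7.41 and 7.91 against 1.91 and 2.07.

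All 4 libraries were also fitted together with limma, which here takes the control and knockdown libraries of a line as its 2 samples. The fit has 1 residual degree of freedom, so its error comes mostly from a prior shared across genes, and nothing in the labels says how the cultures of a line relate. Of the 36 genes, 21 were higher in LIM1215 at an adjusted p under 0.05 and 4 lower, against 23.3% and 16.4% of all genes. With a mean FPKM of at least 1 required in each line, a filter added after the data were seen, 15 of 30 were higher and 4 lower, against 21.5% and 17.0% of all genes. AXIN2 differed by 3.34 ± 0.15 (SE) with a limma adjusted p of 1.22e-05, EPHB2 by 2.15 ± 0.16 with 9.63e-05 and DKK1 by -1.96 ± 0.10 with 2.32e-05. SP5, at 1.49 ± 0.31 with 0.00862, passed here too. NOTUM, at 0.47 ± 0.16 with 0.0570, did not. As TPM, 19 of the 36 genes were higher and 6 lower, with CD44 and LRP6 lost and SOX9 and BCL9L gained. Of all 14803 genes, 2646 were higher and 3095 lower as TPM, in place of 3448 and 2431.

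SP5 is a transcription factor and direct Wnt target (chromosome 2, 170715337 to 170718078, plus strand). Its promoter and that of DKK1 are shown because, of 24 genes with a promoter window, only these 2 held a match to the motifs below. Among the 36 genes, SP5 had the lowest ratio in both knockdowns and DKK1 the lowest ratio of LIM1215 over HT29. Both windows run from 250 bases before to 50 after the RefSeq start on GRCh38.p14, at chr2:170715087-170715386 and chr10:52314031-52314330, both on the plus strand. Capitals mark matches to the TCF/LEF motifs CTTTGAT and CTTTGAA, searched on both strands, so that TTCAAAG is CTTTGAA on the opposite strand.
SP5: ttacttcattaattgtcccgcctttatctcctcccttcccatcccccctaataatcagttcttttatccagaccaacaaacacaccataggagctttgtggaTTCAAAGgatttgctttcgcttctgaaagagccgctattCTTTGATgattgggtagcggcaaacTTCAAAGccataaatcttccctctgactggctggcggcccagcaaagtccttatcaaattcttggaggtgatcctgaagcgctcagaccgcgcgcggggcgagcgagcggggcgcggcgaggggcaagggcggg
DKK1: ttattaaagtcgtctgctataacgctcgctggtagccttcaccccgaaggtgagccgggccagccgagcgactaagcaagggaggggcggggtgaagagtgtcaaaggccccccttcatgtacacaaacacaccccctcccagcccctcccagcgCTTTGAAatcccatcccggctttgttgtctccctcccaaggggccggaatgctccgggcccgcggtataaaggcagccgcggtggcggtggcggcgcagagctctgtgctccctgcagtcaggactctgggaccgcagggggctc
SP5 held 3 matches, at 148, 109 and 84 bases before the start, and DKK1 held 1, at 95 bases before it. Of 35116 RefSeq windows of this length, 6.86% held at least 1 match and 9 windows held at least 3. A window was found for 24 of the 38 genes, and 2 of those 24, or 8.33%, held a match, near the 8.35% of all genes with a window. No window was found for LRP6, FZD7, BCL9L, AXIN2, NKD1, ZNRF3, NOTUM, DKK4, LGR5, ASCL2, SOX9, PROX1, TDGF1 and MYC, so these were not searched. A match is a stretch of letters and was not tested as a binding site.

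Few of the genes were past 2-fold with TMEM161A knockdown, 1 in each direction in HT29 and none in LIM1215. In HT29, 1 of 36 was past 2-fold higher, PYGO2, against 1.85% of all genes, and 1 lower, SP5, against 1.95%. In LIM1215, 0 were higher, against 1.68%, and 0 lower, against 1.78%. The median log2 ratio was 0.12 in HT29, beside 0.04 over all genes, and 0.16 in LIM1215, beside 0.02. The counts of genes past 2-fold are close to the shares of all genes.

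SP5 had FPKM values of 2.93 (control) and 0.354 (knockdown) in HT29 and 6.49 and 4.62 in LIM1215. The knockdown library was the lower of the pair in both lines. In HT29 it held 12.1% of the control (6.37% to 21.0%), from an estimated 115 fragments down to 14.1, and in LIM1215 71.2% (58.0% to 87.4%). On the log2 scale these are -1.54 and -0.41, and the call in HT29 ended with a pseudocount of 5. Over both lines limma gave -0.98 ± 0.31 and an adjusted p of 0.160.

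PYGO2 stood at an FPKM of 8.91 in the control and 19.7 in the knockdown of HT29, against 12.6 and 20.8 for LIM1215, so both knockdown libraries were above both controls. The ratios were 2.21 (1.996 to 2.44) and 1.65 (1.501 to 1.81), and the log2 ratios 1.06 and 0.68. The call in HT29 ended with a pseudocount of 5 or upper quartile scaling. Exons of PYGO2 share 335 bases with SHC1 on the same strand, whose FPKM was 70.1 to 116, and how shared fragments were assigned was not given in the sources used here.

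Over both lines, limma called 2 of the 36 genes higher with knockdown, against 0.858% of all genes, and 0 lower, against 1.09%. The 2 were CD44, at 0.63 ± 0.10 (SE) with an adjusted p of 0.0327, and PYGO2, at 0.87 ± 0.16 with 0.04997. CD44 had an FPKM of 322 and 499.5 in HT29 and 406 and 627 in LIM1215, so both ratios were near 1.5, at 1.55 (1.53 to 1.57) and 1.54 (1.52 to 1.56). PYGO2 lost its call with a pseudocount of 0.1 or 5 (adjusted p of 0.0855 and 0.0593), as TPM and as a fit without a trend, and CD44 lost its call under each of these but the pseudocount of 5. Of all genes, 127 were called higher in the main fit. With a pseudocount of 0.1, as TPM and without a trend, 14, 10 and 0 were. Over all alternatives the adjusted p ran from 0.00749 to 0.248 for CD44 and from 0.0109 to 0.235 for PYGO2. At an unadjusted p under 0.05 in limma, 10 genes were higher, among them BCL9, MYC, BCL9L and TCF7L2, against 10.6% of all genes, and 2 were lower, SP5 and CTNNB1, against 8.84%.

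BCL9 and MYC had adjusted p of 0.0922 and 0.0979 in limma. BCL9 had an FPKM of 8.87 and 13.8 in HT29 and 6.45 and 11.6 in LIM1215, a log2 ratio of 0.58 and 0.75. MYC stood at 0.74 in HT29 and 0.30 in LIM1215. BCL9L stood at 0.63 and 0.27 and TCF7L2 at 0.45 and 0.35. CTNNB1, by contrast, was lower in both knockdowns, at -0.39 and -0.19.

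Of the 36 genes, 18 were higher in both knockdowns, or 50%, beside 35.97% of all genes, and 5 were lower in both, FZD7, WLS, CTNNB1, LGR5 and SP5, or 13.9% beside 28.0%. These include small ratios, and 5 genes listed at 0 in HT29, or 13.9%, had no direction there. They count among the 36 but cannot be above 0 in HT29. Of all genes, 2.26% had a ratio of 0 in a line. In LIM1215, 28 of the 36 were above 0, or 77.8%, beside 53.1% of all genes, and in HT29 20 were, or 55.6%, beside 53.9%. Genes listed at 0 in HT29 can be compared in LIM1215 alone. ASCL2 was 32.3 in the LIM1215 control and 60.4 in the knockdown, a ratio of 1.87 (1.71 to 2.04), and PROX1 3.01 and 6.57, a ratio of 2.19 (1.96 to 2.45). On the log2 scale with a pseudocount of 1 they were 0.88 and 0.92, short of the threshold.

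**Figure D4:**
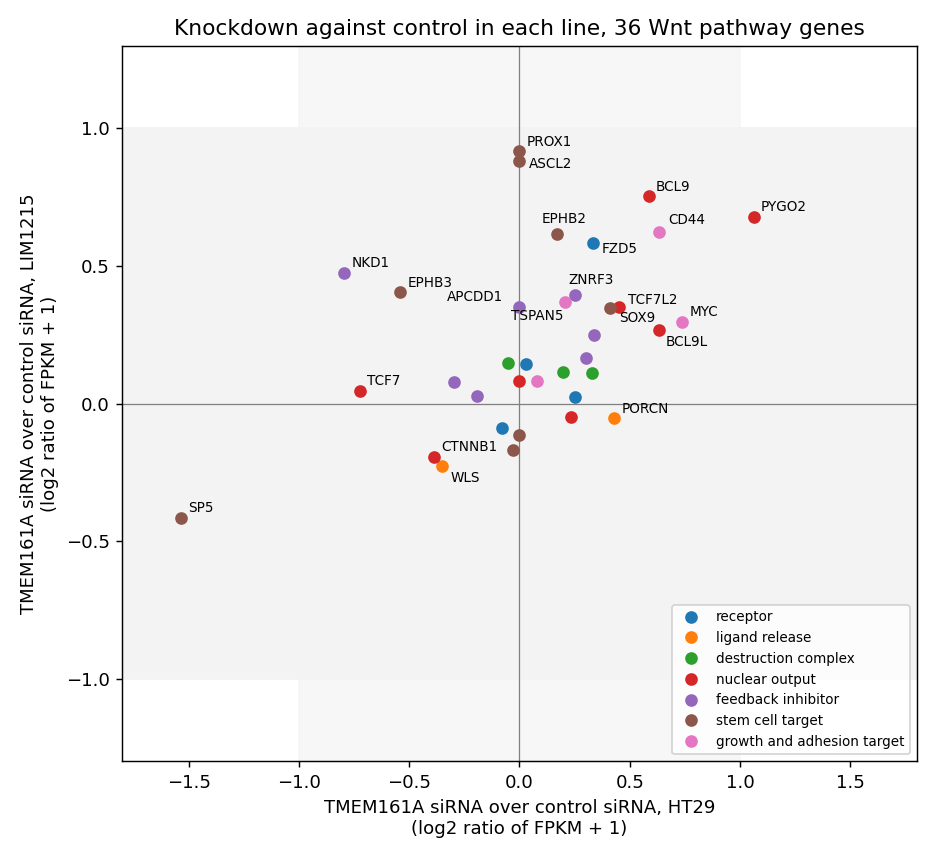
Knockdown over control for the 36 genes, as log2 ratios of FPKM + 1, in HT29 (x axis) and LIM1215 (y axis), coloured by role; each point is 1 gene and the grey bands mark ratios under 2-fold. PYGO2 (1.06 and 0.68) and SP5 (-1.54 and -0.41) stand past 2-fold in HT29, no gene does in LIM1215, and genes listed at 0 in HT29, such as PROX1 and ASCL2, sit at 0 on the x axis.

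Of the 36 genes, 8 had ratios of opposite sign in the 2 lines, or 22.2%, beside 33.8% of all genes. A ratio of 0 in a line, which cannot be of opposite sign, was held by 13.9% of the 36 and 2.26% of all genes. NKD1 had an FPKM of 2.94 and 1.27 in HT29, where the knockdown was lower, and 8.58 and 12.3 in LIM1215, where it was higher. TCF7 had 13.0 and 7.47 in HT29, a ratio of 0.575 (0.514 to 0.643), and 32.6 and 33.7 in LIM1215, where the interval of 0.971 to 1.10 included no change. EPHB3 was 0.598 times the control in HT29 (0.493 to 0.719) and 1.46 times in LIM1215 (1.201 to 1.76).

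The rest of the pathway, on lists of other genes fixed with earlier results of these data known, was compared in the same way. Of 23 further reported targets that passed the filter, 9 were past 2-fold higher in the LIM1215 control and 1, IRS1, lower, beside 12.0% and 7.42% of all genes. CLDN1, SMOC2 and NRCAM passed only through LIM1215 and so had to differ. Without these 6 of 20 were higher, beside 8.14% of all genes with a mean FPKM of at least 1 in each line. BAMBI, a decoy receptor of TGF-β signalling, had an FPKM of 1.12 and 2.0995 in HT29 and 37.7 and 39.2 in LIM1215, and the transcription factor MYB had 1.502 and 1.03 against 24.2 and 29.4. CLDN1, a tight junction gene, had 0.0143 and 0.202 against 9.78 and 29.2, and it was the one gene of the 23 past 2-fold higher with knockdown in LIM1215. FOSL1 was the one past 2-fold in HT29, with 100.4 and 216 there and 59.3 and 91.0 in LIM1215. Of all genes, 1.85% were past 2-fold higher with knockdown in HT29 and 1.68% in LIM1215. None of the 23 was past 2-fold lower with knockdown in either line, beside 1.95% of all genes in HT29 and 1.78% in LIM1215.

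Of all genes, 12.0% were past 2-fold higher and 7.42% lower between controls, and 1.68% to 1.95% in each direction with knockdown. The counts of this paragraph stand beside these shares. Of 16 further transducers, 0 were past 2-fold between controls or with knockdown, where few would be at those shares of all genes. Of 12 further receptors, FZD10, LGR4 and LGR6 were past 2-fold higher in the LIM1215 control and ROR2, a receptor of non-canonical Wnt signalling, lower. FZD10 and LGR6 passed the filter only through LIM1215 and ROR2 only through HT29. ROR2 had an FPKM of 6.38 and 7.15 in HT29 and 0.948 and 0.683 in LIM1215. Of 8 ligands, WNT11 was higher, with 0.408 and 0.158 against 11.3 and 10.8, having passed only through LIM1215, and WNT16 and WNT10B were lower. WNT16 had 16.2 and 27.6 in HT29 against 3.43 and 5.79. FZD3 was past 2-fold lower with knockdown in HT29, from 8.78 to 2.72, and 6.81 and 6.19 in LIM1215.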

How the data were processed

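RNA sequencing of 4 libraries, 1 per cell line and siRNA, was used as the FPKM values deposited by the authors. A stranded mRNA kit was used, per the labels' protocols. HISAT2 2.1.0, SAMtools 1.20, Cufflinks 2.2.1, Cuffdiff and GRCh38 are named in the submitters' processing notes, with roles not given in the sources used here, as with the annotation.

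Symbols and gene lengths came from GENCODE release 44, matched by identifier (56550 of 60658), and promoters from RefSeq. Groups followed the sample titles. Log2 ratios of FPKM + 1 were taken for genes with a mean FPKM of at least 1. Depth was estimated from the steps of low values, of which 74.6% to 75.5% lay within 0.03 of whole fragments, and gave exact Clopper-Pearson 95% counting intervals of ratios, which cover counting error only. NKD1 and other genes whose authors' length differs from the canonical transcript have approximate fragments. limma 3.58.1 (R 4.3.3) fitted line and siRNA, with a prior trend and Benjamini-Hochberg adjustment over 14803 genes, and was tested on simulated data. With 1 library per group, p-values measure only the spread between these libraries.

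The 38 genes and the lists were chosen with earlier results of these data known. Beside them the text names TMEM161A, the cell type markers and, of each further list, up to 3 genes with the largest ratio per comparison. FZD6, TLE2, SMOC2 and NRCAM were named after their values were seen. Alternatives were pseudocounts of 0.1 and 5, other filters, TPM, upper quartile scaling, centring, a 1.5-fold threshold and a fit without a trend. A mean FPKM of at least 1 in each line was added after the data were seen.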

Additional observations from a re-analysis of the deposited data

Results flagged for a closer look

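For 3 genes of the Wnt list the knockdown and control libraries differed in opposite directions in the 2 lines, each beyond its counting interval. The share of all genes that meet this rule was not counted. The rule is a weak one, because the intervals cover counting error only. Among genes of the list above 0 in both libraries of a line, they left out no change for 27 of 31 in HT29 and 27 of 38 in LIM1215. The difference between the lines was not tested, since each line had 1 library per siRNA. The log2 ratio in LIM1215 minus that in HT29 was 1.27 for NKD1, from -0.80 in HT29 and 0.48 in LIM1215. For EPHB3 it was 0.95, from -0.54 and 0.40. For AXIN2 it was 0.38, from -0.30 and 0.08, where the LIM1215 ratio of 1.06 had an interval of 1.01 to 1.10.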

How the results depend on the processing

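Between the control libraries, the 14 genes higher in LIM1215 became 8 with a pseudocount of 5, beside 6.40% of all genes. They became 9 of 28 with a mean FPKM of at least 5, beside 10.5% of all genes. Of these 9, LGR5 and ASCL2, at or near 0 in HT29, passed only through LIM1215 and so had to differ. FZD5 (2.70 and 3.66 in HT29) and NKD1 (2.94 and 1.27) also reached that mean only through LIM1215. With a mean of at least 1 in each line the 14 became 8 of 30, beside 8.14%. The 4 lower became 2 with a pseudocount of 5, beside 2.38%. Between the knockdowns, the 15 higher became 9 under either of the filters on mean FPKM, beside 11.1% and 8.84% of all genes. The 9 with a mean of at least 5 again included LGR5, ASCL2, FZD5 and NKD1. In HT29, the 1 gene higher with knockdown became 0 with a pseudocount of 5 or upper quartile scaling and 4 at a 1.5-fold threshold, which 7.87% of all genes passed. The 1 gene lower became 2 with a pseudocount of 0.1, which adds NKD1, beside 3.77% of all genes, 0 with a pseudocount of 5 or a mean FPKM of at least 5, and 3 at 1.5-fold, beside 6.91%. In LIM1215, the 0 genes higher became 1, PROX1, with a pseudocount of 0.1, beside 3.22% of all genes, and 6 at 1.5-fold, beside 6.63%. The 2 genes that limma called higher with knockdown became 0 with a pseudocount of 0.1, as TPM or without a prior trend, and 1 with a pseudocount of 5. Of all 14803 genes, the 127 called higher became 14, 10 and 0 in that order, and 91 with a pseudocount of 5. The 2 Wnt genes became 4 of 28 with a mean FPKM of at least 5, where 400 of 10576 genes were called higher. A larger pseudocount shrinks the ratios of low genes and a stricter filter leaves 28 of the 36 genes, while the cause of the other changes was not tested. Of 760 alternative values for single ratios, 153 moved beyond the counting interval of the main one and 607 did not. The 607 include ratios with a value of 0, such as LEF1 between the lines. These have no finite interval to move beyond, so staying was fixed for them. The sign changed in 7 of the 760, all of ratios under 0.25 in size, for LRP6, PYGO2 and MYC. The limma fit holds the line as a term, so its siRNA effect is paired within line, and no replicate block beyond that could be fitted. Leaving out a library leaves a group empty and was not run. Depth limits the 7 genes silent in HT29, TNFRSF19 there and SP5 in the HT29 knockdown, where few or no fragments stand behind a value.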

Other observations

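Of 16 further nuclear factors, 3 were past 2-fold higher in the LIM1215 control (HNF4A, CDX1 and CDX2), beside 12.0% of all genes, and 1 was lower (TLE2), beside 7.42%. HNF4A and CDX1 passed the filter only through LIM1215 and so had to differ. TLE2, a Groucho co-repressor, had an FPKM of 20.1 and 17.8 in the HT29 control and knockdown and 5.54 and 6.49 in LIM1215. TLE3 had 19.4 and 45.3 in HT29, past 2-fold higher with knockdown, and 36.4 and 50.5 in LIM1215, where its log2 ratio was 0.46. It was the one gene of the 16 past 2-fold with knockdown in either line, beside 1.68% to 1.95% of all genes in each direction. Of the intestinal transcription factors, HNF4A stood at 0.0948 and 0.0886 in HT29 against 44.7 and 51.2 in LIM1215, and CDX2 at 8.29 and 8.04 against 96.8 and 150.1. KREMEN1, a receptor for DKK proteins, had 10.2 and 4.92 in HT29 and 6.81 and 11.1 in LIM1215, so that its knockdown log2 ratios of -0.92 and 0.63 had opposite signs, a difference that was not tested.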
